A study of Mus musculus with 12 samples.

Results

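The pancreatic acinar and duct transcripts, 41 of 24546 genes, were followed across 12 RNA libraries. They were chosen by name, as digestive enzymes, secretory granule proteins, acinar transcription factors and keratin or duct genes, without the Reg genes. Their RefSeq identifiers were looked up in the deposited matrix, and the transcripts of a gene were summed. All 41 had an entry. Levels are FPKM, fragments per kilobase of transcript scaled to the library's mapped fragments, so genes of different length can be compared.

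The libraries came from CD4 T effector cells recovered from recipient mice. There were 4 groups of 3 libraries: islet with Y16A cells, spleen with Y16A cells, islet with WT cells and spleen with WT cells. Y16A cells were raised in NOD.InsY16A Tg mice, which carry an insulin transgene altered at a residue that insulin-specific T cells contact (its promoter is not given in the sources used here), and WT cells in NOD mice, a strain prone to autoimmune diabetes. Donors were females of 6 to 8 weeks immunised with insulin C19A, and their splenocytes were grown for 2 weeks with 10 µM peptide. After magnetic purification (over 95% purity, under 1% Foxp3+), 5 M cells went into each female NOD.scid recipient of 8 to 10 weeks; such recipients make no T or B cells of their own. The sources used here name no sort of the cells after recovery. The titles of the islet libraries say pancreas and their tissue entry says pancreatic islets. The genotype entry gives NOD for every islet library and NOD.Y16A for every spleen library, against the titles and the design text, which were followed. Labels do not say whether recipients were littermates or were handled on different days. Per the labels, an islet and a spleen library came from the same mouse, and the main fit does not use this pairing. Its p-values rest on the spread between the libraries of a group, pooled over the 4 groups, and hold for these mice only.

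All 10 T cell markers examined were above 0 in all 12 libraries, 1 (Cd3g) was called higher in islet over both origins (limma, adjusted p 0.0494), and their summed level was 2346 to 3736 FPKM in islet libraries and 1767 to 2645 FPKM in spleen libraries. The steps between low FPKM values put the depth at roughly 4.3 to 8.41 M fragments per library, where 3 fragments on a transcript of 1500 bp are worth 0.238 to 0.465 FPKM. That estimate is rough, since only 27.5% to 32.6% of the low values lay within 0.1 of a whole fragment. In bulk RNA of this kind, fewer cells of a type and less RNA per cell cannot be told apart.

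Acinar cells make and store the digestive enzymes of the pancreas, mostly as inactive precursors (zymogens) packed in granules, and release them into ducts that lead to the gut. Trypsinogen is the precursor that, once cut to trypsin, activates the others: chymotrypsinogens, proelastases, procarboxypeptidases and prophospholipase. Lipase works on fat droplets with its cofactor colipase. The factors PTF1A and RBPJL, together with an E protein, form the PTF1 complex that drives the enzyme genes, and BHLHA15 (Mist1) shapes the granule machinery. Duct cells are known by keratin 19, SOX9 and the chloride channel CFTR. Islets are embedded in this exocrine tissue.

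Several members lie side by side in the genome (GRCm38.p6). The 6 trypsinogen genes, in the order Try4, Try5, Try10, Prss3, Prss1 and Prss2, fill 222.8 kb at chr6:41302272-41525079. This stretch lies inside the T cell receptor beta locus, with Trbv2 254.3 kb before Try4 and Trbd1 8.1 kb after Prss2. The lipase genes Pnlip, Pnliprp1 and Pnliprp2 share 107.2 kb of chromosome 19, Cela2a and Ctrc are 12.2 kb apart on chromosome 4, and Amy2b, Amy2a5 and Amy1 span 430.1 kb of chromosome 3.

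The stretches before the start of 4 genes are shown as examples from the 8 members whose shares of the acinar RNA did not overlap between origins (Cela1, Amy2b and Prss2 lower, Pnliprp2 higher, with Y16A cells). They were chosen after their values were seen, 1 each from the trypsinogens, proelastases, amylases and lipases; Try4, Try5, Pnliprp1 and Krt18 are the others. Each is the 250 bases before the annotated start on the gene's strand, from RefSeq on GRCm38.p6: chr6:41521526-41521775 (+) for Prss2, chr15:100687921-100688170 (−) for Cela1, chr3:113156728-113156977 (−) for Amy2b and chr19:58759473-58759722 (+) for Pnliprp2. Capitals mark TATAAA (the TATA box, on the gene's strand), CACCTG (an E-box, either strand) and TTTCCC (the TC-box, either strand, read as GGGAAA on the other). The PTF1 complex is known to bind an E-box and a TC-box together.
Prss2: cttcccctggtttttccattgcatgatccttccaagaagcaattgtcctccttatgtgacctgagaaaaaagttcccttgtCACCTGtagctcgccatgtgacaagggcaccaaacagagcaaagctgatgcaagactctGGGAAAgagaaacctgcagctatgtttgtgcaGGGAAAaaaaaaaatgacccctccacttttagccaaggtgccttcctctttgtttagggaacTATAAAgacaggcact
Cela1: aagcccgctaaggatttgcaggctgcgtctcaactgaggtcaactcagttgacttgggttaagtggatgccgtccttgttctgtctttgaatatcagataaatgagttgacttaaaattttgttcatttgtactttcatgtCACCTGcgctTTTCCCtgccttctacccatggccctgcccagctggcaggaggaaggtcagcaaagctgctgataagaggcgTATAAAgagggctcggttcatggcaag
Amy2b: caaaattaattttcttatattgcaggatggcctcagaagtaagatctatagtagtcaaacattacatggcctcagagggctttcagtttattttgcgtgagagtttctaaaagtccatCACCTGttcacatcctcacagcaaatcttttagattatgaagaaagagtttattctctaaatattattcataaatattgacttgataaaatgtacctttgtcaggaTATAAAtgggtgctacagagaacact
Pnliprp2: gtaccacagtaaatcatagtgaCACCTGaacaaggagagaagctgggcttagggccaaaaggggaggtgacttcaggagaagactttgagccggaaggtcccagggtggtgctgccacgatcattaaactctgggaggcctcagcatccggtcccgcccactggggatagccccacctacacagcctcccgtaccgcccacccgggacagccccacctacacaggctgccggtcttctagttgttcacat
In Cela1 the E-box begins 109 bases and the TC-box 99 bases before the start, on the same strand, and the TATA box 27 bases before it. In Prss2 the E-box begins 169 bases before the start, TC-boxes on the other strand 110 and 78 bases before it, and the TATA box 16 bases before it. Amy2b holds an E-box 132 bases and a TATA box 26 bases before its start, and Pnliprp2 holds an E-box 228 bases before its start. CACCTG followed after 4 bases by TTTCCC was found, on either strand, before 2 of the 31 members with an entry in the promoter table, Cela1 and Prss1, and before 4 of all 32851 promoters (0.0122%). CACCTG alone was found before 18 of 31 members (58.1%) and 17.2% of all promoters. TATAAA was found before 10 of 31 (32.3%) and 7.59% of all, and TTTCCC before 9 of 31 (29%) and 21.9% of all. These are matches of letters, given as a description, and no binding was measured.

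Of the 41 members, 23 were at 1 FPKM or more in every islet library, and the summed acinar RNA was far higher in islet than in spleen libraries. The summed level of all 41 was 1728, 4448 and 3452 FPKM in islet libraries 1, 2 and 3 of Y16A origin and 2643, 6238 and 1806 FPKM in islet libraries 1, 2 and 3 of WT origin. It was 12.5, 9.57 and 13.7 FPKM in the spleens with Y16A cells and 15.4, 7.90 and 9.24 FPKM in those with WT cells. The lowest islet sum was thus 112 times the highest spleen sum. Members made up 0.527% to 2.21% of all FPKM in islet libraries and 0.00304% to 0.00942% in spleen libraries. Set against the summed T cell markers, the ratio was 0.463, 1.51 and 1.17 in Y16A islets and 1.13, 2.48 and 0.545 in WT islets. Between origins the sums overlapped, at 3210 ± 1376 FPKM in Y16A islets and 3562 ± 2355 FPKM in WT islets (SD, n = 3 each). The spread within either origin was larger than the difference between the origin means, the order of the means turned without islet WT replicate 2 (WT mean 2224.5 FPKM) or without islet Y16A replicate 1 (Y16A mean 3950 FPKM), and the highest islet sum was 3.61 times the lowest.

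**Figure D1:**
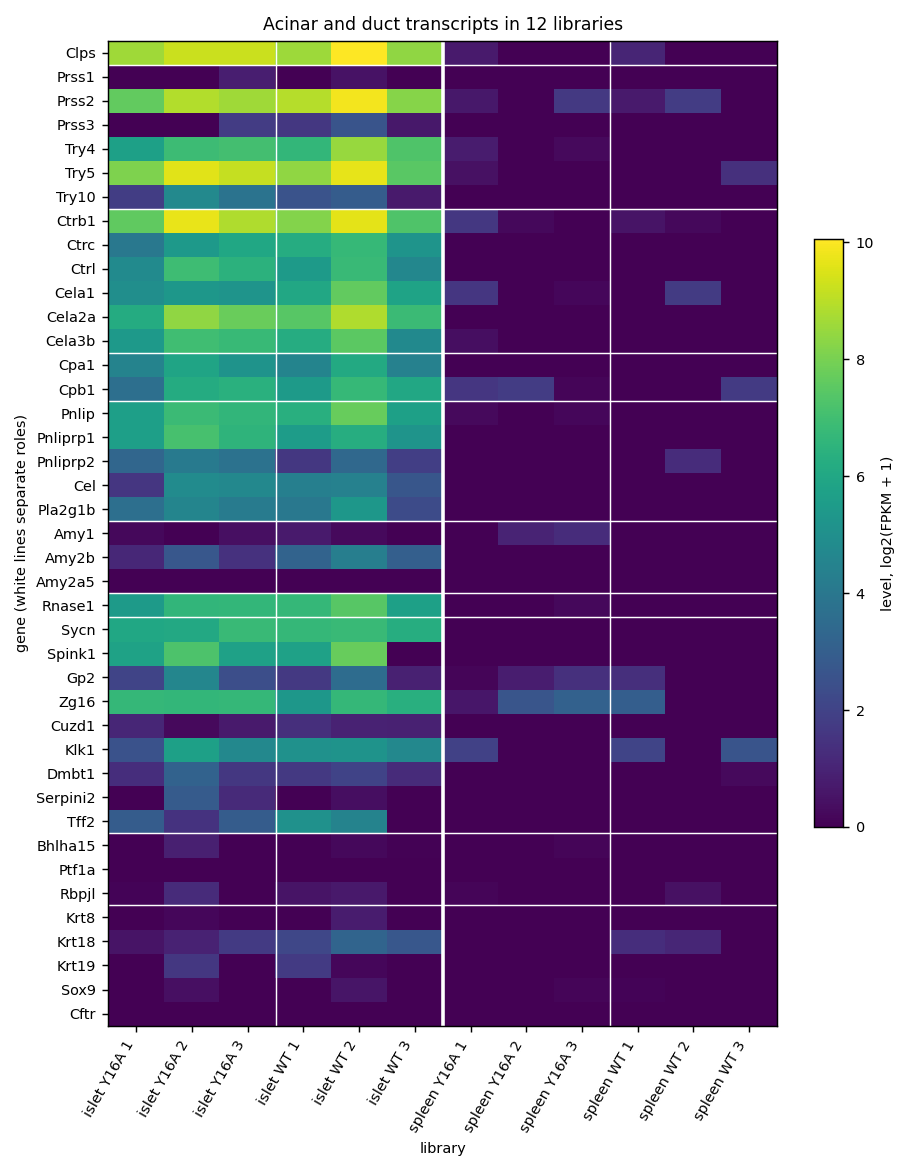
Level of the 41 members, as log2(FPKM + 1), in the 12 libraries, one column a library; white lines separate roles and groups. The 23 members at 1 FPKM or more in every islet library are brighter in every islet than in every spleen column, Klk1 excepted. Members such as Prss1 and Amy2a5, the transcription factors and most duct genes stay dark.

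Of the 41 members, 38 were above 0 in at least 1 islet library and 20 in at least 1 spleen library. Ptf1a, Cftr and Amy2a5 (4 entries) were listed at 0 in all 12. In 24 members every islet value lay above every spleen value. The largest spleen value of any member was 7.61 FPKM. Amy1 was at 0 to 0.674 FPKM in islet and 0 to 1.40 FPKM in spleen, with the higher mean in spleen (0.399 against 0.227 FPKM). Among members not described below by islet values, Gp2 was at 0.915 to 23.5 FPKM in islet and Dmbt1 at 1.36 to 7.86 FPKM. Tff2 was at 0 to 33.2 FPKM, Serpini2 at 0 to 6.41 FPKM and Cuzd1 at 0.197 to 1.58 FPKM.

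By their mean over the 6 islet libraries, colipase and the trypsinogen Try5 were the most abundant members. Clps, the gene of colipase, stood at 388, 600.4 and 605 FPKM in Y16A islets and 381, 1059 and 329 FPKM in WT islets, against 0.664, 0 and 0 FPKM in Y16A spleens and 1.04, 0 and 0 FPKM in WT spleens. It ranked between 26th and 139th of all genes in the 6 islet libraries. No islet value came near the spleen values, and the 2 origins overlapped. In limma's test on log2(FPKM + 1), with Benjamini-Hochberg adjustment over 10101 genes, Clps rose in islet by 8.46 with Y16A cells (SE 0.46, adjusted p 3.45e-09) and by 8.50 with WT cells (SE 0.46, adjusted p 4.40e-09). Here and below a log2 difference is given relative to the median gene, which moved by 0.326 with Y16A cells and 0.156 with WT cells, and the p-value belongs to the difference without this subtraction. The limit that the filter sets on these islet minus spleen p-values is given below, before the counts.

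Among the 6 trypsinogens, 3 carried nearly all of the trypsinogen RNA. Try5 stood at 272, 766 and 577 FPKM in Y16A islets and 335, 807 and 179 FPKM in WT islets, with 0.369 and 1.65 FPKM as its only spleen values above 0. Prss2 stood at 196, 480.1 and 388 FPKM in Y16A islets and 488, 934 and 299 FPKM in WT islets, and at 0 to 2.47 FPKM in spleen, above 0 in 4 of 6 libraries. Try4 stood at 50.9, 119 and 130.4 FPKM in Y16A islets and 101, 363 and 155 FPKM in WT islets, and at 0 to 0.685 FPKM in spleen. All islet values of these genes lay above all spleen values. The log2 difference, islet minus spleen, was 8.47 with Y16A cells and 7.89 with WT cells for Try5, 7.27 with Y16A cells and 8.01 with WT cells for Prss2, and 5.88 with Y16A cells and 7.33 with WT cells for Try4 (limma, SE 0.50 to 0.55, adjusted p at most 2.05e-07). The minor copies were lower. Try10 stood at 2.50, 25.2 and 13.1 FPKM in Y16A islets and 4.89, 6.56 and 0.669 FPKM in WT islets, Prss3 at 0 to 5.03 FPKM and Prss1 at 0 to 0.786 FPKM over the 6 islet libraries, and all of these were listed at 0 in spleen. The surrounding receptor locus is one that T cells express, and in the spleen libraries the trypsinogen genes within it reached at most 2.47 FPKM. The part of that locus in the trypsinogen values was not tested. Copies of the family can share reads: 45.9% of the 50-base stretches of the Try4 transcript are also found in Try5, and their transcripts are 97.1% identical. Of Prss2 only 7.83% of such stretches are found in another gene, and it is 87.4% identical to Try5, so the split between Try4 and Try5 is less certain than that between them and Prss2. For the minor copies Prss3, Prss1 and Try10 this part was 66.1%, 54.9% and 40.8% in that order. Their low values are therefore less certain as well.

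The leading chymotrypsinogen gene, Ctrb1, reached the level of Prss2, and was the highest member of all in islet Y16A replicate 2. Ctrb1, chymotrypsinogen B, stood at 194, 836 and 457 FPKM in Y16A islets and 293, 787 and 153 FPKM in WT islets, against at most 2.10 FPKM in spleen. Cela2a, a proelastase, stood at 72.1, 333 and 215 FPKM in Y16A islets and 174, 459 and 116 FPKM in WT islets, and was listed at 0 in all 6 spleens. Cela3b stood at 41.3, 124 and 107 FPKM in Y16A islets and 72.7, 181 and 26.1 FPKM in WT islets, with a highest spleen value of 0.306 FPKM. For each of these genes the highest values were those of replicate 2 of either origin. Ctrl was at 24.0 to 120.4 FPKM and Ctrc at 15.5 to 104 FPKM over the islet libraries, and both were listed at 0 in spleen. Each of these 5 rose in islet with both origins (limma, adjusted p at most 6.12e-06). Of the 50-base stretches of the Cela2a transcript, 25.6% are also found in Ctrc as annotated, its neighbour, and 33.2% of those of Cela3b in Cela3a, which was listed at 0 throughout.

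Among the fat-digesting enzymes, lipase and its relative Pnliprp1 lay in the range of the proelastases. Pnlip, pancreatic lipase, stood at 49.9, 113 and 98.2 FPKM in Y16A islets and 80.9, 212 and 51.3 FPKM in WT islets, with at most 0.197 FPKM in spleen. Its log2 difference was 5.91 with Y16A cells and 6.44 with WT cells (SE 0.50 each, adjusted p 2.05e-07 and 1.09e-07). Pnliprp1, a lipase-related protein with little lipase activity of its own, ranged over 36.2 to 137 FPKM in islets and was listed at 0 in spleen (adjusted p 7.03e-08 with Y16A cells and 2.19e-07 with WT cells). Pla2g1b, prophospholipase A2, ranged over 3.86 to 38.9 FPKM and Cel, the bile salt-activated lipase, over 2.03 to 28.0 FPKM in islets, with 0 in spleen. Procarboxypeptidases Cpa1 (20.2 to 67.1 FPKM) and Cpb1 (11.6 to 104 FPKM), which trim amino acids from the end of peptides, also rose with both origins (adjusted p at most 0.00257). Cpb1 was above 0 in 4 spleens, at up to 2.48 FPKM.

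Ribonuclease and granule protein genes reached levels like those of the lipases. Rnase1, pancreatic ribonuclease, stood at 43.5, 97.1 and 99.2 FPKM in Y16A islets and 103, 173 and 51.5 FPKM in WT islets, with 0.147 FPKM as its only spleen value above 0. Sycn, the granule membrane protein syncollin, stood at 63.2, 65.2 and 111 FPKM in Y16A islets and 101, 110.4 and 76.5 FPKM in WT islets, and at 0 in spleen. Zg16, a zymogen granule lectin, stood at 103, 101 and 103 FPKM in Y16A islets and 38.7, 102 and 80.8 FPKM in WT islets. Zg16 had the largest spleen values of all members, at 0.513, 5.19 and 7.61 FPKM with Y16A cells and 6.995, 0 and 0 FPKM with WT cells, and still its islet values were all higher. Of the members above 0 in every islet library Sycn was the steadiest, with a highest islet value 1.75 times the lowest, against 5.47 times for Ctrb1 and 37.7 times for Try10. Spink1, the trypsin inhibitor that protects the acinar cell, stood at 55.0, 152 and 52.5 FPKM in Y16A islets and 52.6, 209.9 and 0 FPKM in WT islets. Islet WT replicate 3, at 0, therefore stood apart for Spink1, and Tff2, a trefoil peptide, was also at 0 there. Klk1, a tissue kallikrein, overlapped, with 4.84 to 52.0 FPKM in islet and up to 5.18 FPKM in spleen.

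The acinar regulators and the duct genes were low, and most never reached 1 FPKM, which goes against the duct part of the gene set's name. Rbpjl stood at 0.0699, 1.34 and 0 FPKM in Y16A islets and 0.448, 0.599 and 0 FPKM in WT islets, with up to 0.355 FPKM in spleen. Bhlha15 reached 0.821 FPKM in islet Y16A replicate 2 and was at most 0.159 FPKM elsewhere. Krt8 was above 0 in 2 libraries (0.117 FPKM in islet Y16A replicate 2 and 0.705 FPKM in islet WT replicate 2). Krt19 was above 0 in 3 islet libraries (2.11, 2.24 and 0.117 FPKM) and in no spleen library, and Sox9 did not exceed 0.481 FPKM anywhere. Krt18, a keratin of simple epithelia that acinar, duct and endocrine cells make, was the one duct or keratin member that passed the filter, at 0.452, 0.955 and 2.27 FPKM in Y16A islets and 3.39, 8.39 and 5.63 FPKM in WT islets. The order among the low regulators and duct genes was not tested.

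A filter of at least 1 FPKM in at least 3 libraries kept 10101 genes and 29 of the 41 members. Of these 29, 26 did not reach 1 FPKM in 3 spleen libraries and so passed through the islet libraries, where they are high, which by itself makes a difference likely. The counts below, and the islet minus spleen p-values given above for single members, describe the set and are no support for it. With Y16A cells, 22 of the 29 were called higher in islet than in spleen at an adjusted p under 0.05 and 0 lower, where 0.97% of all genes tested were called higher and 0.198% lower. With WT cells, 20 were called higher and 0 lower, where 0.634% of all genes were called higher and 0.178% lower. Averaged over both origins, 27 were called higher and 0 lower, where 1.88% of all genes were called higher and 0.416% lower. Gp2, a granule membrane glycoprotein (adjusted p 0.0651), and Prss3 (adjusted p 0.2004) were not called in that average. Islet values lay above spleen values without overlap in 28 members with Y16A cells (14.6% of all genes, and 3.69% below), in 26 with WT cells (7.51%, and 3.86% below) and in 23 over 6 against 6 libraries (1.67%, and 0.297% below). None of the 29 lay below. In the average, 3 calls did not outlast the loss of single libraries. That of Krt18 was lost without islet Y16A replicate 2 or 3, islet WT replicate 2 or 3, spleen WT replicate 3 or any of the Y16A spleens. That of Tff2 was lost without islet Y16A replicate 1 or 3, islet WT replicate 1 or 2 or any spleen library, and that of Spink1 without islet Y16A replicate 2 or any spleen library. The islet minus spleen difference was not called as differing between origins for any member (interaction, 0 of 29, and 0% of all genes). At an unadjusted p under 0.05 in limma's interaction test were 2 members, Amy2b and Pnliprp2. Their log2 differences were −1.92 (SE 0.71, p 0.0243) and 1.68 (SE 0.76, p 0.0271) in that order. With 3 libraries a group, the lack of calls does not show equal differences in both origins.

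**Figure D2:**
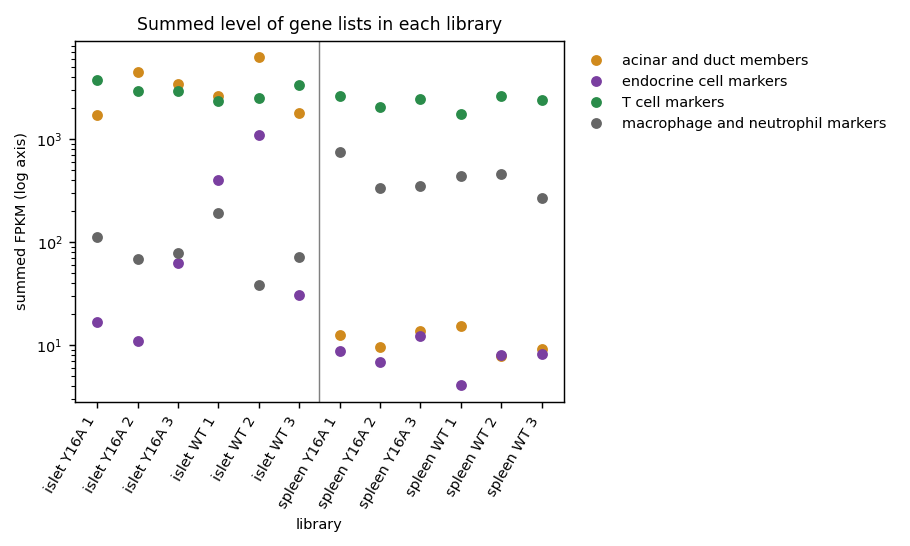
Summed FPKM of the members and of 3 marker lists in each library, on a log axis. The members lie at 1728 to 6238 FPKM in islet libraries and 7.90 to 15.4 FPKM in spleen libraries, the T cell markers lie at 1767 to 3736 FPKM over all 12 libraries, and the endocrine markers follow the order of the members among the WT islets but not among the Y16A islets.

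Markers of other cells moved in part with the members. Other acinar genes not among the members (23 listed, 20 with an entry, 9 tested) had 2 called higher and 0 lower in islet over both origins, with a median log2 difference of 1.00. Of these, Reg3d was at 1.06 to 26.9 FPKM in islet and at 0 in spleen (adjusted p 0.00029). Of 18 duct and epithelial genes, 8 were tested, and 2 were called higher: Clu, a secreted chaperone of many cell types (6.74 to 22.2 FPKM in islet, 0 in spleen, adjusted p 1.23e-06), and Spp1, osteopontin (2.78 to 26.0 FPKM in islet, at most 2.26 FPKM in spleen, adjusted p 0.00189). The median log2 difference of this list was only 0.26. Cd24a (−1.54), Anxa4 (−0.12) and Muc1 (−0.03) lay below the median gene in islet, and 0 were called lower. Of 18 endocrine markers 9 were tested, and Iapp, the islet amyloid peptide, and Ttr were called higher in islet (15 of 18 were above 0 in an islet and 8 in a spleen library). Of 14 stromal and endothelial markers 5 were tested and 0 were called by limma; their sum was 5.46 to 37.4 FPKM in islet libraries and 2.03 to 12.6 FPKM in spleen libraries. Of 13 macrophage and neutrophil markers 10 were tested and 5 were called lower in islet, among them the neutrophil genes S100a8 and S100a9. The list's sum was 38.5 to 192 FPKM in islet and 267 to 755 FPKM in spleen, where Fcer1g alone gave 528 FPKM in spleen Y16A replicate 1. The tissues overlapped for Lyz2 (11.9 to 37.5 FPKM in islet, 11.5 to 81.4 FPKM in spleen). They also overlapped for Cd68 (1.91 to 11.3 FPKM in islet, 4.01 to 21.9 FPKM in spleen).

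Endocrine and acinar RNA were not proportional, although within the WT islets their sums had the same order. The endocrine sum was 16.8, 11.0 and 62.4 FPKM in Y16A islets and 404, 1089 and 30.6 FPKM in WT islets, against 4.10 to 12.2 FPKM over the spleens. Ins2, an insulin gene, was at 0, 0 and 26.2 FPKM in Y16A islets and 296, 878 and 9.82 FPKM in WT islets. Islet Y16A replicate 2 thus had the second highest acinar sum and no Ins2, and the endocrine genes Ppy and Pcsk1 were at 0 in all 12 libraries. How far other cells in the islet samples take part in any member's difference was not tested.

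Of the enzyme classes, the trypsinogens kept the steadiest share across the 6 islet libraries, and single members varied more. The trypsinogens took 30.2%, 31.3% and 32.2% of the summed member FPKM in Y16A islets and 35.2%, 33.9% and 35.1% in WT islets. Chymotrypsinogens and proelastases together took 22.0% to 33.6% and colipase 13.5% to 22.4% over the 6 libraries. Lipases took 7.07%, 7.13% and 7.08% in Y16A islets and 6.16%, 5.71% and 5.51% in WT islets. The amylase genes took 0.0772%, 0.125% and 0.0581% in Y16A islets and 0.337%, 0.301% and 0.399% in WT islets. Of the 50-base stretches of the Amy2a5 transcript, which was listed at 0 throughout, 57.2% are also found in other genes, so the amylase share is less certain. The 5 largest members of each library held 61.7% to 67.8% of its sum. Across the members, Spearman's rho of the shares was 0.826 to 0.957 over the 15 pairs of islet libraries, a description of genes that share a library's depth and scaling and span a wide range of levels. The highest share was 2.89 times the lowest for Sycn and 4.08 times for Zg16. The share of chymotrypsinogens and proelastases was 22.0% and 22.7% in the libraries with the lowest member sums (islet Y16A replicate 1 and islet WT replicate 3) and 33.6% and 29.5% in those with the highest (islet Y16A replicate 2 and islet WT replicate 2), so the make-up was not the same at low and high sums. Pnlip had the steadiest share (2.54% to 3.39%), and the ratio of Ctrl to Ctrb1 stayed at 0.141 to 0.189 while the level of Ctrb1 varied 5.47 times. Replicate 2 of either origin held the highest islet value for 31 of the members (12 in Y16A and 19 in WT). Of 27 members above 0 in every islet library, 13 were lowest in islet Y16A replicate 1 and 11 in islet WT replicate 3.

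**Figure D3:**
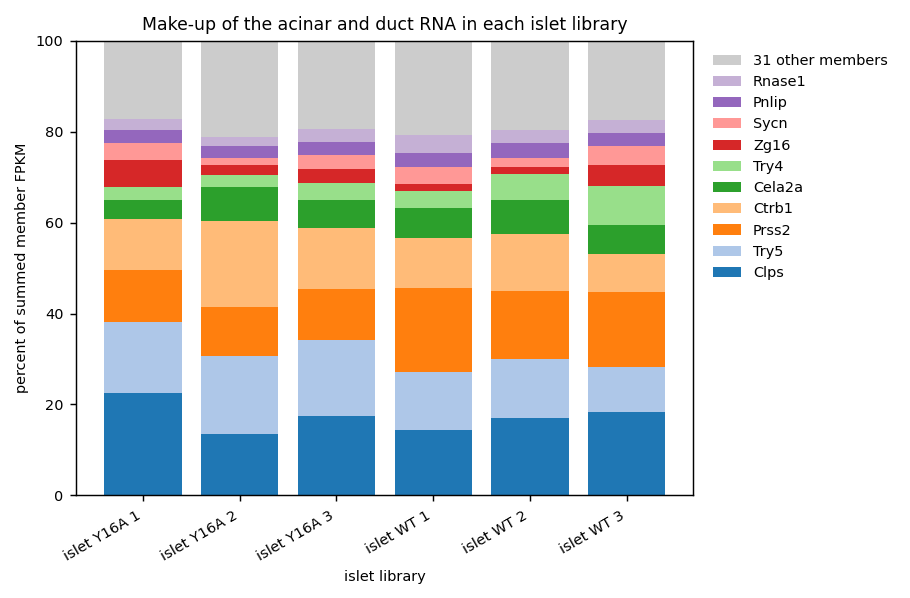
Percent of the summed member FPKM taken by the 10 members with the largest mean share and by the 31 others, one bar for each islet library. Clps, Try5 and Prss2 are wide bands in all 6 bars, and the Prss2 band is narrower and the Try5 band wider in the Y16A bars than in the WT bars.

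Taken as shares of the summed member FPKM, 8 of the 41 members had shares that did not overlap between origins. Those higher with Y16A cells were Try5 (15.7%, 17.2% and 16.7% in Y16A islets, 12.7%, 12.9% and 9.91% in WT islets), Pnliprp1 (2.86%, 3.09% and 2.65% in Y16A islets, 1.72%, 1.21% and 2.00% in WT islets) and Pnliprp2. Pnliprp2, a galactolipid-splitting lipase relative, took 0.516%, 0.361% and 0.367% in Y16A islets and 0.0800%, 0.153% and 0.148% in WT islets. Relative to the member sum, 2.85% of all 10101 genes tested lay higher without overlap. Those lower with Y16A cells were Prss2 (11.3%, 10.8% and 11.2% in Y16A islets, 18.5%, 15.0% and 16.5% in WT islets), Try4 (2.95%, 2.67% and 3.78% in Y16A islets, 3.81%, 5.83% and 8.58% in WT islets), Cela1, Amy2b and Krt18. Cela1, proelastase 1, took 1.75%, 0.878% and 1.05% in Y16A islets and 2.41%, 3.15% and 3.09% in WT islets. Relative to the member sum, 1% of all genes tested lay lower without overlap. These percentages over all genes are no like baseline for the members. Each gene was divided by a member sum that varied 3.61 times among the islet libraries and that the members themselves make up. All 10101 genes had also passed the filter, which 12 of the 41 members did not. With 3 libraries against 3 the smallest two-sided exact permutation p is 0.1, so shares were not tested. Without islet Y16A replicate 3 the number without overlap was 15, and without islet WT replicate 2 it was 13. Leaving out a library can only keep or raise this number, so these counts do not speak to its stability.

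**Figure D4:**
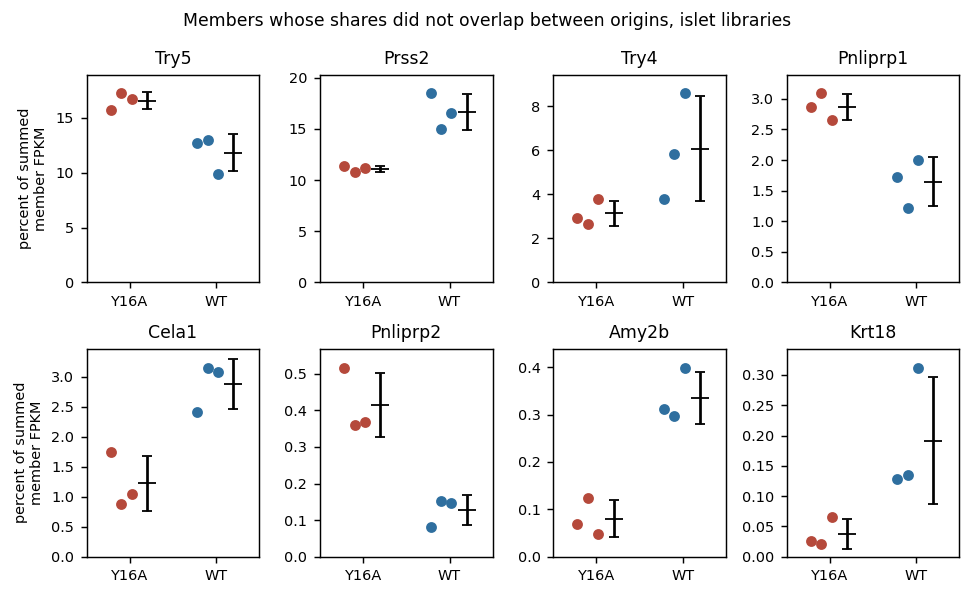
Percent of the summed member FPKM for the 8 members without overlap, Y16A islets left and WT islets right of them; points are libraries, and the bar beside them is the mean ± SD (n = 3). Try5, Pnliprp1 and Pnliprp2 lie higher and Prss2, Try4, Cela1, Amy2b and Krt18 lower in the Y16A libraries, and the nearest pair is that of Try4 at 3.78% in a Y16A and 3.81% in a WT library.

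Ratios between related genes need no common denominator, but they use the same values as the shares above and add no separate support. Prss2 over Try5 was 0.721, 0.627 and 0.671 in Y16A islets and 1.46, 1.16 and 1.67 in WT islets, so Try5 was the larger in every Y16A library and Prss2 in every WT library. Try4 over Try5 was 0.187, 0.155 and 0.226 in Y16A islets and 0.301, 0.450 and 0.866 in WT islets. Among the fat-digesting enzymes, Pnliprp2 over Pnlip was 0.179, 0.142 and 0.129 in Y16A islets and 0.0261, 0.0451 and 0.0521 in WT islets, and Pnliprp1 over Pnlip was 0.991, 1.21 and 0.931 in Y16A islets and 0.563, 0.357 and 0.705 in WT islets. Amy2b over Pnlip was 0.0238, 0.0492 and 0.0170 in Y16A islets and 0.102, 0.0877 and 0.140 in WT islets. Prss2 over Ctrb1 was also lower in Y16A islets without overlap. Cela1 over Cela2a overlapped between origins, at 0.419, 0.117 and 0.169 in Y16A islets and 0.366, 0.428 and 0.482 in WT islets. The ratios of Clps to Pnlip (4.71 to 7.77), Clps to Ctrb1, Cela3b to Cela2a, Cpb1 to Cpa1 and Ctrc to Ctrb1 overlapped as well. So did those of Ctrl to Ctrb1, Try10 to Try5, Spink1 to Prss2 and Sycn to Zg16. None of these ratios was tested.

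Between Y16A and WT islets no member's level was called (0 of 29, and 0% of all genes; 4 members and 475 genes had an unadjusted p under 0.05 in limma). The members with that unadjusted p were Amy2b, Krt18, Pnliprp2 and Cela1. Amy2b, a pancreatic amylase that splits starch, stood at 1.19, 5.56 and 1.67 FPKM in Y16A islets and 8.24, 18.6 and 7.20 FPKM in WT islets, without overlap. Its log2 difference, relative to the median gene, which was 0.256 higher with Y16A cells, was −2.01 (95% interval −3.08 to −0.95, adjusted p 0.92). Krt18 also did not overlap (log2 difference −1.88, 95% interval −2.93 to −0.83, adjusted p 0.966). Cela1 stood at 30.2, 39.1 and 36.3 FPKM in Y16A islets and 63.7, 197 and 55.7 FPKM in WT islets, again without overlap (log2 difference −1.58, 95% interval −2.83 to −0.32, adjusted p 0.966). So 3 of 29 members were lower without overlap and 0 were higher, where 2.28% of all genes tested were lower and 7.77% higher without overlap. On the other side, Pnliprp2 stood at 8.93, 16.1 and 12.7 FPKM in Y16A islets and 2.11, 9.55 and 2.67 FPKM in WT islets, overlapping (log2 difference 1.16, 95% interval 0.03 to 2.30, adjusted p 0.966). Try10 had a log2 difference of 1.12 (95% interval −0.28 to 2.51, adjusted p 0.966) with overlapping values. That of Spink1 was 1.52 (95% interval −1.72 to 4.77, adjusted p 0.966) and rests on islet WT replicate 3, where Spink1 was at 0; without that library it was −0.92. For Clps the log2 difference was −0.23, with an interval from −1.20 to 0.74 and an adjusted p of 0.998. The WT islets with the high endocrine sums given above, replicates 1 and 2, are in the same comparison, and the part of endocrine cells in these differences was not tested.

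**Figure D5:**
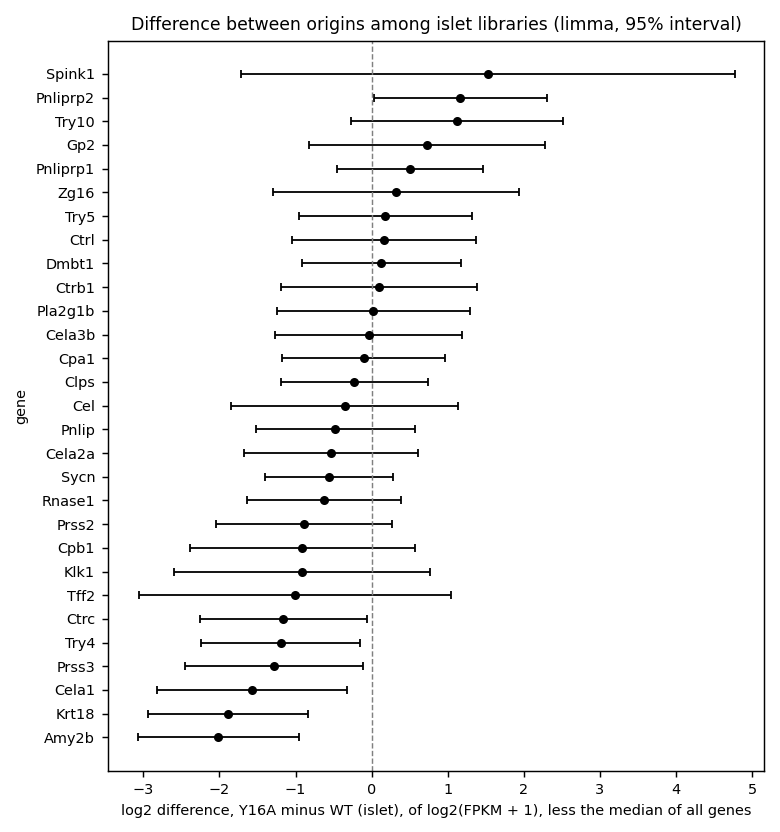
Log2 difference, Y16A minus WT, of the 29 tested members among islet libraries, relative to the median gene, with limma's 95% intervals moved by the same amount. The intervals of Amy2b, Krt18, Cela1, Prss3, Try4 and Ctrc lie below 0, that of Pnliprp2 above it and the others across it, and none of the differences passed after adjustment over all genes (adjusted p 0.92 or more). Limma's unadjusted p, for the difference without this subtraction, was 0.0805 for Prss3, 0.0745 for Try4 and 0.101 for Ctrc.

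In the spleen, 0 of the 29 members were called between Y16A and WT (0 at an unadjusted p under 0.05, with 0% of all genes called and 524 at that unadjusted p in limma). There 1 member, Dmbt1, was lower without overlap, at 0 with Y16A cells and 0.0149 to 0.185 FPKM with WT cells, where 3.49% of all genes tested were. None was higher without overlap, where 5.61% of all genes were.

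The authors' deposited table compares Y16A and WT islets transcript by transcript, on FPKM of its own scale, with 33 lines for 30 members. In the authors' deposited table, 4 of these 33 lines had a q-value under 0.05, all lower with Y16A cells, where 0.56% of all its 9815 lines were lower and 0.367% higher at that q-value. By the authors' deposited table, Cela1 was at 102 FPKM with Y16A and 386 FPKM with WT cells, Try4 at 292 and 714 FPKM and Prss2 at 1090 and 2151 FPKM in the same order, each with a q-value of 0.00701. Ctrc, chymotrypsin C, was at 123 FPKM with Y16A cells and 276 FPKM with WT cells in the authors' deposited table (q-value 0.0436). These values are higher than the matrix's and were not scaled alike, so they are not averaged with them. In the fit on the matrix the same genes had log2 differences of −1.58 (Cela1), −1.20 (Try4), −0.89 (Prss2) and −1.16 (Ctrc), with adjusted p of 0.966 each. The lipase relatives Pnliprp1 and Pnliprp2 had higher values with Y16A cells in the authors' deposited table as well, with q-values of 0.741 and 0.708.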

How the data were processed

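RNA of 12 libraries was prepared by Triton X-100 lysis, reverse transcription, cDNA amplification and Nextera XT, per the labels' protocols. The authors' deposited matrix gives FPKM of each transcript by library; TopHat 1.0.0, Cufflinks and mm9 are named in the submitters' processing notes. The authors' deposited table gives p-values and q-values and FPKM per condition for Y16A against WT islets, and 99.8% of its 9591 loci that could be compared overlap their gene on GRCm38, so coordinates here are those of RefSeq on GRCm38.p6. Of 36285 matrix entries, 35981 matched the RefSeq table and 36032 after adding the pairs of the authors' table. FPKM were summed to 24546 genes.

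Genes reaching 1 FPKM in 3 or more libraries (10101) were fitted as log2(FPKM + 1) with limma 3.58.1 (R 4.3.3, statmod 1.5.0): 4 group means, 8 residual degrees of freedom, empirical Bayes with trend and robust variance, Benjamini-Hochberg adjustment, calls at 0.05. Such log2 differences understate the change of low genes. The median change of genes averaging over 5 FPKM was subtracted from the printed differences. The script was tested on simulated data. The planned test applied, since the files hold FPKM and no counts; depth is only estimated, so no counting intervals are given.

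Per the labels, each mouse gave 1 islet and 1 spleen library, which pairs them; the correlation of their deviations was −0.030 to 0.073. Replicate numbers of Y16A and WT belong to different mice. The members and lists were chosen with earlier results of these data known. Values by library are given for the 12 members with the highest islet mean, the regulators and duct members, and the 3 largest differences between origins in each direction; other members are named by range. The values of 1 gene called in the list of other acinar genes are not reported here. Alternatives were the pseudocount (0.1 FPKM), the filter, quantile normalization, rescaling to genes outside the members, single transcripts, the replicate block and leaving out each library.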

Additional observations from a re-analysis of the deposited data

How the results depend on the processing

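Over all alternatives the number of members called stayed at 19 to 24 with Y16A cells (22 as reported), 19 to 22 with WT cells (20) and 24 to 27 for their average (27), and it was 0 between origins in islet, in spleen and for the interaction. With the mouse as replicate block it was 21, 20 and 26 in that order, and the block ended the calls of Klk1 (Y16A) and Krt18 (average) among the members. For Y16A against WT the replicate block, on numbers that different mice share, gave 0 calls. The mean member sum of WT islets was 2224.5 FPKM without islet WT replicate 2, against 3562 FPKM with it, and that of Y16A islets 3950 FPKM without islet Y16A replicate 1, against 3210 FPKM with it; each turned the order of the origin means. The number of members whose shares did not overlap between origins, 8, was 9 to 15 with 1 islet library left out, and 6 without the trypsinogens. Leaving out a library can only keep or raise that number. Spink1, 1.52 higher on the log2 scale in Y16A islets, was −0.92 without islet WT replicate 3 and at most 3.20 with another library left out. Within an origin, leaving out 1 library ended the calls of Cel (islet Y16A replicate 2 or 3 with Y16A cells, islet WT replicate 1 or 2 with WT cells), Try10 (islet Y16A replicate 2 or 3) and Klk1 (islet or spleen Y16A replicate 2 or 3). A pseudocount of 0.1 FPKM ended those of Zg16 with both origins and Cpb1 with Y16A cells. The cause was not tested. Rescaling to genes outside the members moved the median gene between islet and spleen to −0.02 with Y16A and −0.19 with WT cells, and 0 members changed direction. Depth limits the lowest values, and how many fragments they rest on varies with library and transcript length.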
